A study of Mus musculus with 2 samples.

Results

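A group of microRNAs (miRNAs) known for their induction in inflammation or cell stress, 7 of the 1881 on a mouse array, was followed in mouse femur after ovariectomy (OVX), an operation that takes out the ovaries and with them the main source of estrogen. They were chosen by name, with earlier results of these data known: mmu-miR-21a-5p, mmu-miR-146a-5p, mmu-miR-146b-5p, mmu-miR-155-5p, mmu-miR-34a-5p, mmu-miR-132-3p and mmu-miR-212-3p, with all 14 of their probes out of 4415. The prefix mmu, for mouse, is left off from here on. Femur RNA of C57BL/6 females after OVX was set against femur RNA of C57BL/6 females after a sham operation. All mice were 9 months old and no allele or agent is named in the labels. Whole femurs with marrow and bone went into each sample, and the RNA of 4 mice was mixed per group, so that each group is 1 pooled sample on 1 single-colour Agilent miRNA array. The comparison asks how these miRNAs differ in bone and marrow after loss of the ovaries. With 1 array per group no test could be made and no p-value is given, and "higher" and "lower" describe these 2 arrays. The labels do not give the time after surgery.

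A miRNA guides silencing proteins to messenger RNAs that pair with its seed, the bases 2 to 8 counted from its 5′ end. The members belong to several signalling pathways. miR-146a and miR-155 are switched on by NF-κB, the transcription factor of innate immune signalling. miR-146a and miR-146b repress the adaptor proteins Traf6 and Irak1 and so restrain the pathway, and miR-155 represses Socs1 and the phosphatase Ship1. miR-21 is induced by STAT3 and AP-1, represses Pdcd4, and has been reported to promote osteoclasts, the cells that resorb bone. miR-34a is a direct target of p53, the transcription factor of DNA damage, and has been reported to restrain osteoclasts. miR-132 and miR-212 are made from 1 primary transcript that responds to CREB, a transcription factor of cyclic AMP signalling.

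The mature sequences, from RefSeq on build GRCm38.p6 and matched by name for all 7, show which members can share targets. Capitals mark the seed.
miR-146a-5p: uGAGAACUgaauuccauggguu
miR-146b-5p: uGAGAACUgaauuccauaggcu
miR-155-5p: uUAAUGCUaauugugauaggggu
miR-21a-5p: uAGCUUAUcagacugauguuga
miR-34a-5p: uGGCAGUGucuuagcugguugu
miR-132-3p: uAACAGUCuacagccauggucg
miR-212-3p: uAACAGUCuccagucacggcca
The 7 members carry 5 seeds, since miR-146a-5p shares its seed with miR-146b-5p and miR-132-3p shares its seed with miR-212-3p. The miR-146 pair differs at 2 of 22 bases, G18A and U21C, with the miR-146a-5p base first and positions counted from the 5′ end. The miR-132 and miR-212 pair differs at 5 of 22 bases. On that build miR-146a-5p lies at chr11:43374435-43374456 on the minus strand, and miR-146b-5p on another chromosome at chr19:46342790-46342811 on the plus strand. miR-155-5p lies at chr16:84714143-84714165 and miR-34a-5p at chr4:150068473-150068494, both on the plus strand. miR-21a-5p lies at chr11:86584120-86584141 on the minus strand, inside Vmp1, a gene of autophagosome formation. miR-212-3p at chr11:75173443-75173464 and miR-132-3p at chr11:75173723-75173744 are neighbours on the plus strand, with 280 bases between their starts.

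Each member had 2 probes that differ by 1 base in length, each printed as 15 spots per array. The probes are DNA complements of the 3′ part of the miRNA. Those of miR-21a-5p, miR-34a-5p and the miR-146 pair reach back to bases 3 to 5, while those of miR-212-3p start at base 9 or 10 and cover none of the seed. The 19-base probes of the miR-146 pair are printed here because they are the closest pair among the members, with the bases in which they differ in capitals.
miR-146a-5p probe: aAccCatggaattcagttc
miR-146b-5p probe: aGccTatggaattcagttc
For both of these probes the other miR-146 is the nearest match among the 1608 array miRNAs with a RefSeq sequence, with 2 mismatches. How much of each signal comes from the other miR-146 was not tested.

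The values are processed signals, the spot brightness after background subtraction by the scanner software, in arbitrary intensity units. Spots flagged as outliers were left out. A probe was counted as present when over 50% of its spots were well above background by the scanner's call, and a miRNA as present when it had such a probe. By this rule 299 miRNAs were present on the OVX array and 202 on the sham array. The OVX array was brighter, by a factor of 2.02 at the 75th percentile of the 350 probes present on both arrays. Each array was therefore scaled to that percentile before the log2 difference, OVX minus sham, was taken, and differences are relative to the other miRNAs of the array. Negative control spots reached at most 10.3 on the OVX array and 9.40 on the sham array. Red-cell, myeloid and lymphocyte miRNAs were present on both arrays, as were both arms of the cartilage miRNA miR-140, but not those of miR-455, also of cartilage, and miR-124-3p and miR-9-5p of brain and miR-122-5p of liver were present on neither.

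miR-212-3p, miR-21a-5p and miR-34a-5p were measured on both arrays, miR-146a-5p, miR-146b-5p and miR-155-5p on the OVX array alone, and miR-132-3p on neither. No member was found on the sham array alone. Of all 1881 miRNAs, 102, or 5.42%, were found on the OVX array alone and 5 on the sham array alone. Because the OVX array was brighter, presence on that array alone is not read as a difference in level. On the log2 scale the gap was 1.01 at the percentile used for scaling. For 28 control probes, other than the negative controls, it was 0.37. How much of the gap comes from the array and how much from the RNA was not tested.

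**Figure D1:**
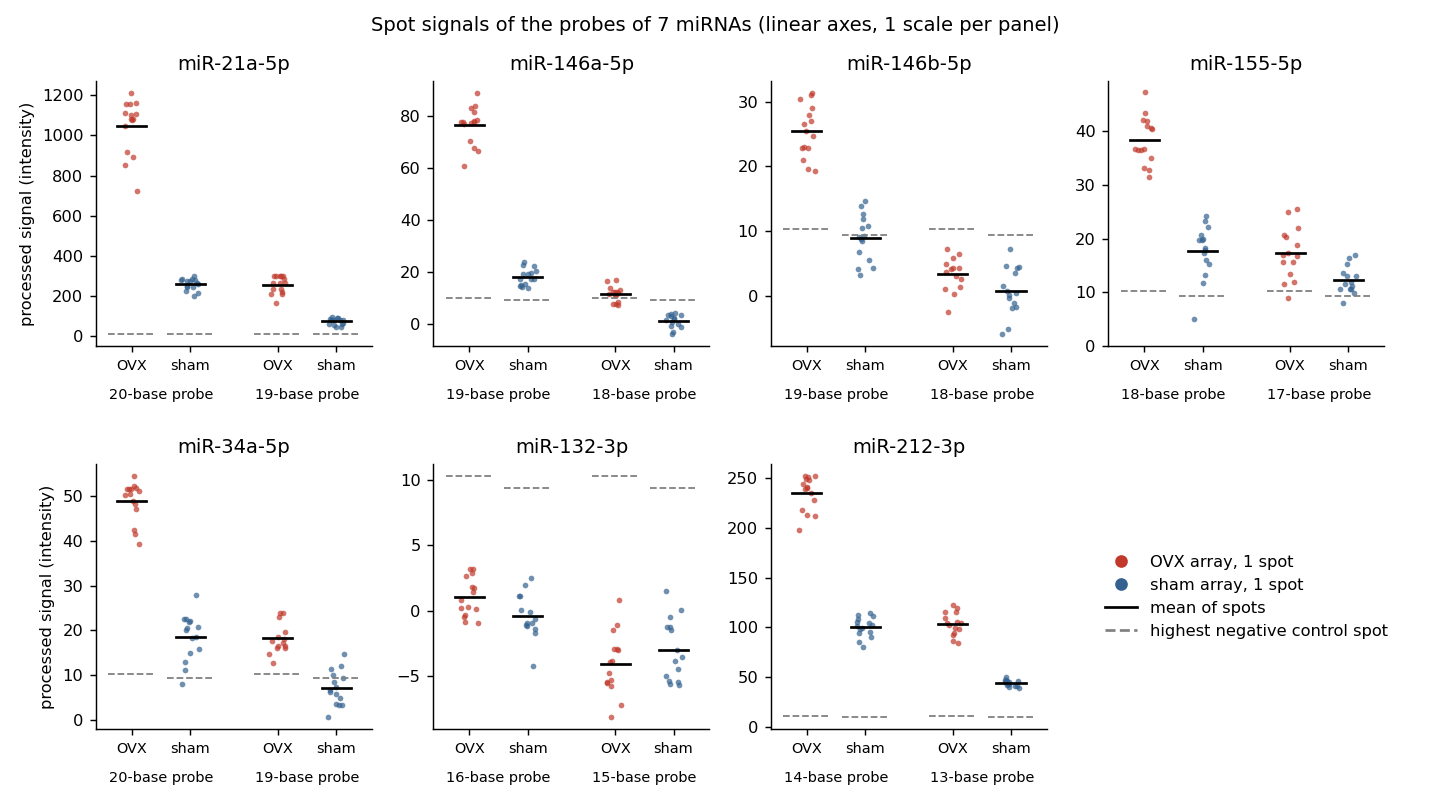
Processed signal (linear axis, arbitrary intensity units, 1 scale per panel) of every spot of the 14 probes, with OVX left of sham for each probe; black lines are means of the spots and dashed lines the highest negative control spot of that array. The miR-21a-5p and miR-212-3p spots lie far above the dashed lines on both arrays, the miR-132-3p spots below them on both, and miR-146a-5p, miR-146b-5p, miR-155-5p and miR-34a-5p lie near them on the sham array.

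The miRNAs of NF-κB signalling were dim. miR-146a-5p was clearest on the OVX array: its 19-base probe had spots of 60.6 to 88.6 (median 77.6) on the OVX array, against 14.04 to 23.8 (median 17.6) on the sham array. The spot ranges of this probe did not overlap, also after division of the OVX spots by the brightness factor (30.02 to 43.9). How many of all probes have ranges without overlap was not counted, here or for the members below. Whether such gaps are more common among the members than among all probes is therefore not known, and none is read as a result. On the sham array 7 of its 15 spots were well above background, just short of the rule, although all 15 lay above the highest negative control spot. After scaling, miR-146a-5p was at least 2.07-fold higher in OVX, with the probe's own sham signal as the limit, so the bound is the difference of this probe and holds no variation between mice. It was the largest of the 102 bounds in that direction. All 102 belong to miRNAs that passed the rule on the OVX array alone, so this rank is no support for a difference. Of those 102, 1 (0.98%), miR-146a-5p itself, had a bound of at least 2-fold. A bound of at least 1.5-fold was found for 2 (1.96%), miR-146a-5p among them. The 18-base probe of miR-146a-5p, which pairs with 1 base less, averaged 11.7 ± 2.92 on the OVX array and 1.28 ± 2.61 on the sham array (SD between 15 and 14 spots) and was present on neither. In the authors' deposited value table, whose names had to be moved by 1 row, miR-146a-5p stood at 3.62 in OVX and 2.84 in sham on the log2 scale, a difference of 0.78. That is below 2-fold, as is the bound of 1.82-fold when arrays are scaled to their median. With all probes used and dim signals set to a floor, which gives the 18-base probe the floors of both arrays, miR-146a-5p was at 0.076.

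miR-146b-5p, with the same seed, was nearer to background. Its 19-base probe had spots of 19.4 to 31.4 (median 25.6) on the OVX array, with 13 of 15 well above background, against 3.15 to 14.6 (median 9.04) on the sham array, with 0 of 15. The spot ranges did not overlap before scaling, and overlapped after it (OVX spots of 9.59 to 15.5 on the sham scale). The scaled OVX level was below the lowest level that counted as present on the sham array, and no fold is given. In the authors' deposited value table miR-146b-5p stood at -0.25 in OVX and at -3.18 in sham, a difference of 2.93. The sham value is the floor of that array, so the size of this difference depends on the floor. The 18-base probe averaged 3.30 ± 2.62 on the OVX array and 0.659 ± 3.69 on the sham array (SD between 14 and 15 spots), and none of its spots lay above the highest negative control on either. miR-146b-5p is thus near background in sham femur.

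miR-155-5p had spots of 31.4 to 47.1 (median 36.6) with its 18-base probe on the OVX array, against 5.04 to 24.3 (median 18.2) on the sham array. The spot ranges did not overlap before scaling, but after it all OVX spots (15.5 to 23.4 on the sham scale) lay within the sham range. On the sham array 7 of the 15 spots were well above background. Its means were 38.3 ± 4.45 on the OVX array and 17.6 ± 4.93 on the sham array (SD between 15 spots each), a gap close to the difference in brightness between the arrays. After scaling the bound from this 18-base probe was 1.06-fold higher in OVX, and no bound was left with median scaling. In the authors' deposited value table it stood at 3.15 in OVX and 3.42 in sham, a difference of -0.27. Its 17-base probe averaged 17.3 on the OVX array and 12.3 on the sham array and was present on neither. After scaling that probe was lower in OVX, at -3.91 against -3.39 in sham. With all probes used and dim signals set to a floor, miR-155-5p was at -0.40, where the median of all miRNAs was -0.90. No direction is therefore given for miR-155-5p.

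miR-21a-5p, far above background on both arrays, had the largest difference among the 3 members measured on both. Its 20-base probe had spots of 724 to 1211 (median 1082) on the OVX array, against 199 to 299.96 (median 263) on the sham array. Its 19-base probe had spots of 167 to 302 (median 266) on the OVX array, against 43.4 to 97.1 (median 79.0) on the sham array. Before scaling every OVX spot was brighter than every sham spot for each probe; after scaling this held for all 15 OVX spots of the 20-base probe and 14 of 15 of the 19-base probe. The scaled level of miR-21a-5p was 0.99 in OVX and 0.09 in sham, a difference of 0.90 (spot SE 0.06), or 1.87-fold. The spot SE is the standard error between the spots of a probe and is technical. The probes gave 1.002 (20 bases) and 0.81 (19 bases), so the longer one reached 2-fold and the shorter did not. The difference ranked 7 of 197. Differences were larger for probes poor in G and C (Spearman's rho -0.32 between probe GC content and difference across the 197 miRNAs, which share the arrays and are not independent), and the miR-21a-5p probes have 40.0% and 36.8% GC. With the linear trend on GC removed the difference was 0.72. Under the 16 other settings tried it lay between 0.72 and 1.92 and was above the median of all miRNAs in each. Settings that only change the scaling constant move all miRNAs alike and could not alter its place against that median.

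By the rule for likeness, the 3 miRNAs of at least median level with the closest difference over the 2 arrays were miR-574-3p (0.92), miR-29b-3p (0.89) and miR-376b-3p (0.86). With 1 difference per miRNA this is a nearness in size and no pattern across samples.

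miR-34a-5p was dim and rested on 1 probe. Its 20-base probe had spots of 39.3 to 54.4 (median 50.4) on the OVX array, against 7.96 to 27.8 (median 20.1) on the sham array. The spots did not overlap before scaling, but after it the OVX spots (19.5 to 26.9 on the sham scale) lay within the sham range. On the sham array 10 of 15 spots were well above background, which places the probe just inside the rule. The 19-base probe averaged 18.2 ± 3.37 on the OVX array and 7.23 ± 3.81 on the sham array (SD between 14 and 15 spots) and was present on neither. The scaled difference of miR-34a-5p was 0.39 (spot SE 0.11), or 1.31-fold, rank 37 of 197. It turned to -0.27 with normexp background correction, where the median of all miRNAs was -0.26. When dim signals were set to a floor it was -0.26, where that median was -0.90. In the authors' deposited value table it was 0.59. In the scanner's gene-level signal it was at -2.79, with 18.5 on the OVX array and 62.0 on the sham array, the opposite order to its own probes. It is therefore reported as near background in sham femur, with no settled direction.

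miR-212-3p was well above background on both arrays. Its 14-base probe had spots of 198 to 252 (median 239.8) on the OVX array, against 80.3 to 114 (median 101) on the sham array. Its 13-base probe had spots of 84.6 to 123 (median 104) on the OVX array, against 39.3 to 49.9 (median 43.7) on the sham array. The ranges did not overlap before scaling and overlapped after it for each probe. The ratios of the means, 2.34 and 2.36, were close to the difference in brightness between the arrays. The scaled difference was 0.22 (spot SE 0.03), or 1.17-fold, with 0.22 and 0.23 from its probes, rank 60 of 197. It was -0.030 in the authors' deposited value table and 0.0090 with normexp, where the medians of all miRNAs were -0.030 and -0.26, so no direction is given.

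miR-132-3p, the partner of miR-212-3p, was at background. Its 16-base probe had spots of -0.924 to 3.20 (median 0.817) on the OVX array, against -4.21 to 2.47 (median -0.764) on the sham array. Its 15-base probe had spots of -8.14 to 0.803 on the OVX array and of -5.68 to 1.49 on the sham array. None of its spots exceeded the highest negative control spot of its array, and the spot ranges of the arrays overlapped.

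Of the 3 members measured on both arrays, 1 (miR-21a-5p) was at least 1.5-fold higher in OVX, where 22 of the 197 measured miRNAs, or 11.2%, passed that fold, and 0 were at least 2-fold higher, where 4, or 2.03%, passed. All 3 were above 0 with this scaling, as were 93 of the 197, or 47.2%, but miR-34a-5p and miR-212-3p changed sign in the settings given above. The median of the 3 was 0.39, and that of the 197 was -0.04. A count of 3 members is too small to be read against these shares.

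**Figure D2:**
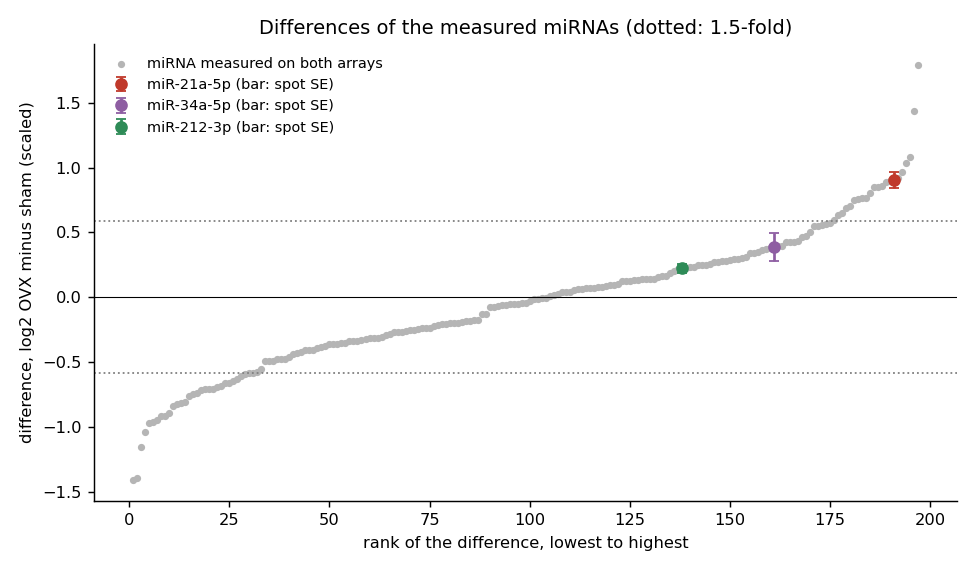
Difference (log2 OVX minus sham, scaled) of the 197 miRNAs measured on both arrays, ordered by size, with the 3 measured members coloured, spot SE as bars and dotted lines at 1.5-fold. miR-21a-5p lies above the upper line at 0.90, while miR-34a-5p (0.39) and miR-212-3p (0.22) lie inside the lines.

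The other strand of each member's hairpin was also on the array. Of these 7, from miR-21a-3p to miR-212-5p, 0 were present on either array. Their highest signal was that of miR-21a-3p, 5.18 on the OVX array and 3.27 on the sham array with its brightest probe, within the range of the negative controls. Further miRNAs with a member's seed were sought among the 1608 with a RefSeq sequence. These were miR-21c, with the seed of miR-21a-5p, and miR-34b-5p, miR-449a-5p and miR-449c-5p, with that of miR-34a-5p. None of the 4 was present on either array, and their highest signal, that of miR-34b-5p, reached 2.22 on the OVX array and 1.08 on the sham array. miR-155-5p had no seed mate there.

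Of 20 further miRNAs reported to respond to inflammation, hypoxia or p53, 8 were measured on both arrays, 1 was found on the OVX array alone and 11 on neither. Of the 8, 5 had a difference above 0 and 3 one below it, and their median was 0.16. At 1.5-fold, 1 was higher and 2 were lower, where 11.2% and 14.7% of all measured miRNAs were. miR-29b-3p, which targets collagens and has been linked to p53, was higher by 0.89 (spot SE 0.08). miR-221-3p, induced by NF-κB in several cell types, was at -0.84 (spot SE 0.05), and miR-223-3p, the abundant granulocyte miRNA that targets the inflammasome protein Nlrp3, was at -0.63 (spot SE 0.02). Smaller differences were found for miR-15a-5p (0.43), miR-125b-5p (0.34), let-7i-5p (0.25), miR-16-5p (0.08) and miR-107-3p (-0.43). miR-192-5p, a p53 target, was present on the OVX array only and had no bound above 1. Not present by the rule were the hypoxia miRNA miR-210-3p and miR-147-3p, induced in activated macrophages, and miR-187-3p, induced by interleukin 10 in human monocytes. The brightest probe of miR-210-3p averaged 15.5 on the OVX array, above the highest negative control spot there, and 9.31 on the sham array. With this scaling the list thus held differences in both directions. Before scaling the brightest probes of the 3 below 0 were brighter on the OVX array, as were those of the other 5. They averaged 33.1 for miR-221-3p, 8213 for miR-223-3p and 248 for miR-107-3p on the OVX array, against 30.1, 6212 and 164 on the sham array.

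**Figure D3:**
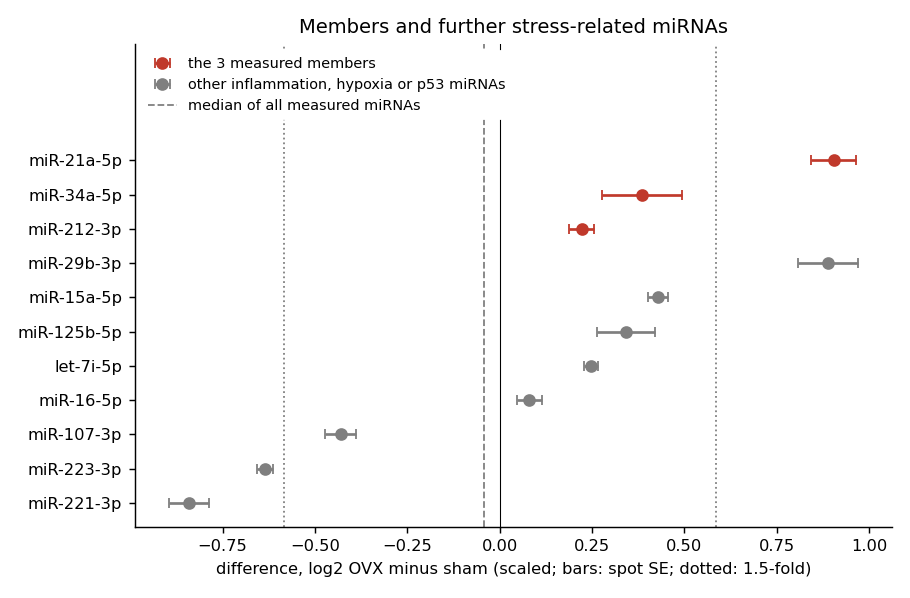
Difference (log2 OVX minus sham, scaled) of the 3 measured members, above, and of the 8 measured miRNAs of the further list, below, with spot SE as bars, dotted lines at 1.5-fold and a dashed line at the median of all measured miRNAs (-0.04). The further list runs from miR-221-3p at -0.84 to miR-29b-3p at 0.89.

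Marker miRNAs of marrow cells also differed between the arrays. In bulk femur, fewer cells of a type and less RNA per cell cannot be told apart. Of the 4 miRNAs listed for myeloid cells, 3 were measured on both arrays: miR-142a-5p was at 1.08, miR-142a-3p at 0.63 and miR-223-3p at -0.63, and miR-223-5p was present on neither. Whether the miR-142a arms come from myeloid cells or from other blood cells was not tested. Summed signals are given before scaling, on arrays that differ 2.02-fold in brightness. That of the myeloid probes was 13711 on the OVX array and 9237 on the sham array, a gap smaller than the one in brightness. All 3 lymphocyte markers were measured, with miR-150-5p at 1.43, miR-342-3p at 0.22 and miR-181a-5p at -0.21, and summed signals of 943 on the OVX array and 341 on the sham array. Of the 4 red-cell markers, all measured, miR-486a-5p was at -0.71 and the other 3 lay above 0, with summed signals of 16536 on the OVX array and 6826 on the sham array. The endothelial miR-126a-3p was at 0.77, and miR-126a-5p was present on neither array. Of the 4 stromal markers, miR-199a-3p was present on the OVX array alone with no bound above 1, and the other 3 on neither. Of the 4 muscle markers, miR-133a-3p and miR-133b-3p were present on the sham array alone, with 10.8 and 16.3 on the OVX array, against 19.5 and 26.8 on the sham array. miR-1a-3p and miR-206-3p were present on neither, with 11.2 and 7.56 on the OVX array, against 7.09 and -0.484 on the sham array. The summed muscle signal, also before scaling, was 56.99 on the OVX array and 58.43 on the sham array. It was thus not raised along with the 2.02-fold brightness of the OVX array. The part of cell makeup in the values of miR-21a-5p and miR-146a-5p was not tested.

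**Figure D4:**
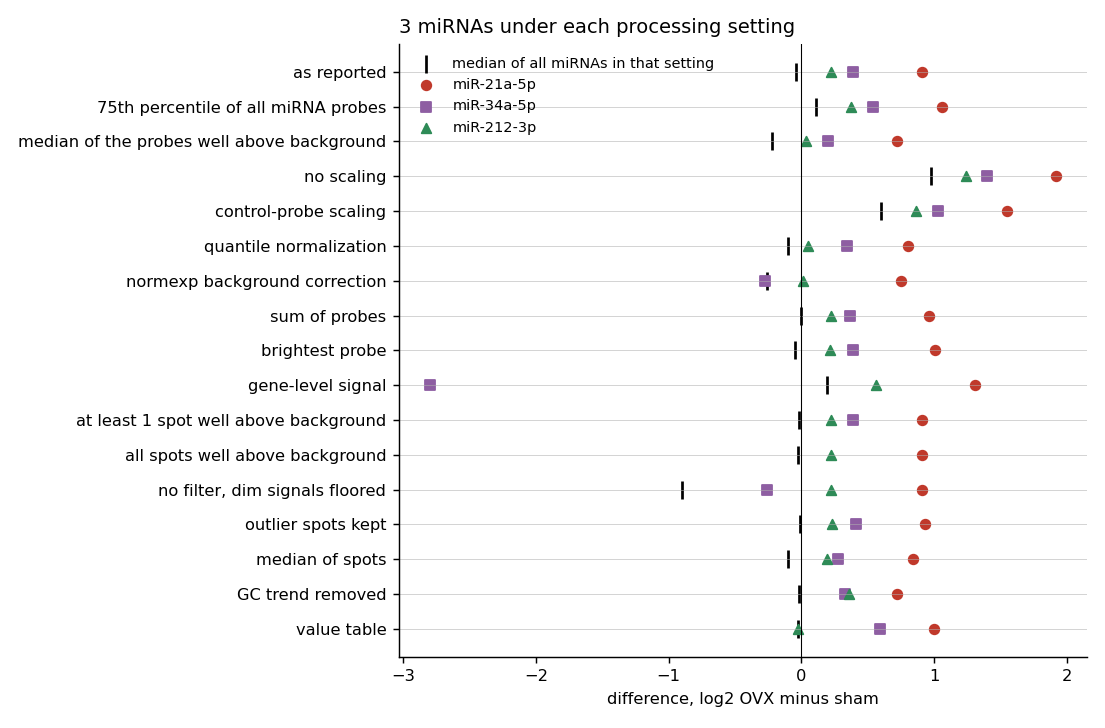
Difference (log2 OVX minus sham) of the 3 measured members under each processing setting, with the median of all miRNAs in that setting as a black tick; the median tick moves with the scaling. miR-21a-5p lies right of 0 in every setting, while miR-34a-5p lies left of 0 in 3 settings and miR-212-3p in 1; miR-34a-5p has no point where all spots had to be well above background.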

How the data were processed

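Per the file headers, the deposited scanner files give intensity values per spot, made by the authors with Agilent Feature Extraction 10.7.1.1 (11.0.1.1 per the submitters' processing notes); the processed intensity is background-subtracted and not normalized between arrays. The authors' deposited value table holds log2 values whose normalization is not given in the sources used here, with medians of -3.32 (OVX) and -3.18 (sham), the floors. Its names matched the arrays when moved by 1 row (Spearman 0.994 for OVX and 0.996 for sham over 1881 miRNAs, against 0.041 and 0.016 as printed). Per the labels, 0.2 μg of RNA was labelled with Cy3 by a kit that amplifies cRNA, which is not the usual labelling for a miRNA array; what was done could not be settled here.

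Outlier spots were left out (2.90% of miRNA spots for OVX, 2.75% for sham); no miRNA spot was saturated. The mean signal of each probe was taken to log2, less the array's 75th percentile over 350 probes, and the probes present on both arrays were then averaged per miRNA. Where a miRNA was present on 1 array, the bound set its level against the higher of the dim signal and the lowest signal counted as present. The number of arrays limits the precision. Python 3.11.15, pandas 2.3.3, scipy 1.17.1 and limma 3.58.1 (normexp, offset 50) were used, and the calculation was tested on simulated data. The members and lists were chosen with earlier results of these data known. The miRNAs named were all members, their other arms, their seed mates, the further list, the 3 nearest in difference to the member with the largest, and the cell type markers. Alternatives covered scaling, background correction, probe summary, dim probes, outlier spots, GC content and the value table.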

Additional observations from a re-analysis of the deposited data

How the results depend on the processing

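Each difference was computed under 16 other settings. For miR-21a-5p every value was above 0, and for miR-34a-5p and miR-212-3p most were. Scaling to the 75th percentile of all probes gave 1.06 for miR-21a-5p and 0.37 for miR-212-3p, with 1 member past 2-fold. Median scaling gave 0.72 and 0.038. Without scaling the values were 1.92 for miR-21a-5p, 1.40 for miR-34a-5p (also the median) and 1.23 for miR-212-3p, with 3 members past 1.5-fold and 3 past 2-fold. With scaling to 28 control probes they were 1.54, 1.02 (also the median) and 0.86, with 3 members past 1.5-fold and 2 past 2-fold. The median of all miRNAs was then 0.97 without scaling, 0.60 with control probes, -0.23 with median scaling and 0.11 with all probes, against -0.04 as reported. These scalings move every miRNA by the same amount, so the distance of the members from the median was fixed and tests nothing. Quantile normalization gave 0.052 for miR-212-3p. Normexp gave 0.75 for miR-21a-5p, -0.27 for miR-34a-5p and 0.0090 for miR-212-3p (also the median), where the median of all was -0.26. The gene-level signal gave 1.30, -2.79 and 0.56, with 1 member past 2-fold; the cause of the miR-34a-5p value was not tested. With dim signals floored miR-34a-5p, also the median over all 7 members, was at -0.26, and miR-146a-5p at 0.076, where the median of all was -0.90, the value the floors give to a miRNA dim on both arrays. With the GC trend removed miR-21a-5p was at 0.72 and miR-212-3p at 0.35. The value table gave -0.030 for miR-212-3p, with 2 members past 1.5-fold. With the brightest probe 1 member passed 2-fold. Counting probes with at least 1 spot well above background let in miR-146a-5p (1.05) and miR-155-5p (0.11), with 2 members past 1.5-fold and 1 past 2-fold. When all spots had to be well above background, miR-34a-5p was not measured. The bound of miR-146a-5p was 4.18-fold without scaling, 3.23-fold with control probes and 1.82-fold with median scaling; that of miR-155-5p was 2.15-fold and 1.66-fold, with none under median scaling. No paired analysis was possible because each group has 1 array. Signal over background limits miR-146b-5p, miR-155-5p and miR-34a-5p, and on the sham array also miR-146a-5p. For miR-132-3p a level below background cannot be told from absence.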

Other observations

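miR-132-3p and miR-212-3p are cut from neighbouring hairpins of 1 transcript. Only the miR-212-3p probes were above background, with means of 234.7 and 103.6 on the OVX array, against 100.1 and 43.9 on the sham array. No spot of the miR-132-3p probes exceeded the highest negative control spot on either array. The miR-212-3p probes are among the shortest of the design, with 13 and 14 bases and 69.2% and 64.3% GC. The 13-base probe has 2 mismatches to miR-7b-3p, its nearest other match among the 1608 of 1881 array miRNAs with a RefSeq sequence. Of the 1392 probes of up to 14 bases, 8.26% were present on both arrays, against 7.77% of the 3023 longer ones. The other arms, miR-132-5p and miR-212-5p, were present on neither array. Whether the miR-212-3p probes detect miR-212-3p or another RNA was not tested.

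The scanner's own detection call parted from the probe rule for 2 members. It called miR-146a-5p and miR-155-5p detected on both arrays, with gene-level signals of 21.1 and 15.4 on the OVX array, against 3.87 and 6.36 on the sham array. For the other 5 members the call and the rule gave the same arrays.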
